A study of Mus musculus with 7 samples.

Results

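Glutathione transferases are enzymes that join the tripeptide glutathione to reactive, fat-soluble compounds, which makes those compounds soluble and ready for export. The soluble enzymes fall into classes named by Greek letters, the kappa enzyme is found in mitochondria and peroxisomes, and a separate membrane family (MAPEG, membrane-associated proteins in eicosanoid and glutathione metabolism) sits in the endoplasmic reticulum and outer mitochondrial membrane. Many of the genes are known targets of NRF2, the transcription factor that answers oxidants and electrophiles, and long-lived blood stem cells are known to keep oxidants low.

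The genes described here are 10 members of this family, out of 19649 genes in the deposited table: Gstm1, Gstm4, Gstm5 and Gstm7 of the mu class, Gsta4 (alpha), Gstp1 (pi), Gsto1 (omega), Gstk1 (kappa), and Mgst1 and Mgst2 of the membrane family. They were chosen by symbol with their mutant minus wild-type differences in these same libraries already known, so those differences are given as a description, without a test. All 10 symbols were in the table and all 10 passed the filter on low values.

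RNA was sequenced from sorted mouse long-term haematopoietic stem cells in 7 libraries. The 4 wild-type libraries have the genotype Calr +/+ (Calr wildtype) MxCre and the 3 mutant libraries have Calr fl/fl, given as Calr del52/del52, with MxCre; the strain field of both reads CALR knockin crossed with MxCre. Both groups therefore carried MxCre, a Cre recombinase under an interferon-inducible promoter that acts in many cell types, both received pI:pC to switch it on, and cells were collected 14 days after that began, with no drug treatment. The sort took lineage-negative cells with Kit and Sca-1 and with CD150 but not CD48. The ages, the number of animals per library and whether libraries came from separate animals are not stated in the labels, so any p-value measures only the spread between these libraries. Calr encodes calreticulin, a chaperone of the endoplasmic reticulum, and del52 is a deletion that changes its C terminus and recurs in myeloproliferative neoplasms.

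Between 21325340 and 28710304 reads were counted per library. The stem cell markers fixed for the check were present (14 of 14 in the table, none at 0 in any library), with summed normalized counts of 56233 to 103618 in wild-type and 57293 to 64941 in mutant libraries. Wild-type 3 and 4 stood apart from the other 5 libraries: deviations of all tested genes rose with exonic length by 0.24 log2 units per doubling of length in both, against -0.17 to 0.01 in the others. A limma test of wild-type 3 and 4 against wild-type 1 and 2 called 8810 of 16047 tested genes at an adjusted p under 0.05. The 10 genes have exonic lengths of 1266 to 3703 bases (median 1574.5 bases, against 3787 for all tested genes), and 9 of them were lower in wild-type 3 and 4 than in wild-type 1 and 2. For that reason the differences of the 10 genes are given against both wild-type pairs. Titles of wild-type 3 and 4 and of mutant 1 and 2 carry numbers that run together, unlike the remaining 3; what the numbers mark is not stated in the labels. Kit, the receptor used in the sort, had 26511 and 25305 normalized counts in these wild-type libraries and 2976 to 6677 in the other 5.

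The mu class genes lie side by side on chromosome 3 (GRCm38, 107895821 to 108044894) and resemble each other, which bears on how well reads can be assigned to each. Their coding sequences were 82.7% identical between Gstm1 and Gstm7, 80.2% between Gstm1 and Gstm4, and 71.4% between Gstm1 and Gstm5. A matching 60-base coding stretch of each, from GENCODE vM21 (GRCm38) transcripts, shows how they differ; every stretch spans exons 2 and 3 of its transcript. Capitals mark bases that differ from Gstm1.
Gstm1 (coding bases 61 to 120, chr3:108016941-108017402, minus strand): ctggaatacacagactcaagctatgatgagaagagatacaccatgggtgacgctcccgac
Gstm4 (coding bases 61 to 120, chr3:108043952-108044404, minus strand): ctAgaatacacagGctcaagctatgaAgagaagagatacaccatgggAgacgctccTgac
Gstm5 (coding bases 70 to 129, chr3:107896322-107896633, plus strand): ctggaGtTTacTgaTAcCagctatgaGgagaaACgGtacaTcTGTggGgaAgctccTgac
Gstm7 (coding bases 61 to 120, chr3:107930885-107931366, minus strand): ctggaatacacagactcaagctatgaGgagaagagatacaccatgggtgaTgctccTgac

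In this stretch Gstm7 differed from Gstm1 at 3 bases, Gstm4 at 5 and Gstm5 at 18. Over whole transcripts, 18.9% of the distinct 50-base words of Gstm1 also occurred in another gene, mostly Gstm2-ps1 (14.1%) and Gstm3 (8.16%), so its counts carry that uncertainty. For Gstp1 the share was 33.7%, all of it shared with Gstp2 and part of it with Gstp-ps. In the table Gstm2-ps1 had 4.16 to 15.7 and Gstp2 0.834 to 7.25 normalized counts, far below Gstm1 and Gstp1, and Gstp-ps had 43.2 to 151. Gstm3 was not in the table, so no value of it can be set beside Gstm1. The treatment of multiply mapped reads is not stated, so low counts do not show where shared reads were assigned. Gstm5 shared 9.44% of its words with 4933431E20Rik, an antisense gene that overlaps 178 of its exonic bases, and since the kits named in the labels do not mark strand the reads there cannot be told apart. The share was 0.532% for Gstm7, 0.475% for Mgst2, and 0 for Gstm4, Gsta4, Gsto1, Gstk1 and Mgst1.

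Among the mu class genes, whose enzymes handle a wide range of electrophiles, Gstm7 had the clearest separation. Gstm7 (ENSMUSG00000004035.12, chromosome 3, 107926334 to 107931817) had 481, 497, 400 and 499.8 normalized counts across wild-type 1 to 4, against 1038, 919.7 and 938 across mutant 1 to 3. The lowest mutant library was 1.84 times the highest wild-type library, and the wild-type pairs overlapped each other. Its means were 469 ± 46.7 (SD, n = 4) and 965 ± 63.6 (SD, n = 3), a log2 difference of 1.04 (limma SE 0.17). The difference was 0.98 against wild-type 1 and 2 and 1.11 against wild-type 3 and 4. Over all libraries 2.26% of the 16047 tested genes had a larger difference. Nothing is read from that share, since Gstm7 was chosen with this contrast known.

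Gstm1 (ENSMUSG00000058135.12, chromosome 3, 108012255 to 108017973), the mu class gene with the highest level per length here, had 5322, 5347, 3695 and 3710 normalized counts across wild-type 1 to 4, against 7283, 5768 and 6937 across mutant 1 to 3. The 3 mutant values were above the 4 wild-type values, but mutant 2 exceeded wild-type 2 by a factor of only 1.08. The log2 difference was 0.58 (limma SE 0.21), made up of 0.31 against wild-type 1 and 2 and 0.84 against wild-type 3 and 4. Gstm4 (ENSMUSG00000027890.17, chromosome 3, 108040408 to 108044894) followed the same order, with 764, 763, 599.8 and 633 across the wild-type group, against 928, 861 and 1022 across the mutant group. Its groups did not overlap either, and its log2 difference was 0.45 (limma SE 0.18), 0.29 against the first pair and 0.60 against the second. Gstm5 (ENSMUSG00000004032.10, chromosome 3, 107895821 to 107898686) had 1937, 1691, 1074 and 846 across the wild-type group, against 2262, 1621 and 2679 across the mutant group. Here mutant 2 was below wild-type 1 and 2, so the groups overlapped, and the log2 difference of 0.70 (limma SE 0.32) was 0.24 against wild-type 1 and 2 and 1.17 against wild-type 3 and 4.

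**Figure D1:**
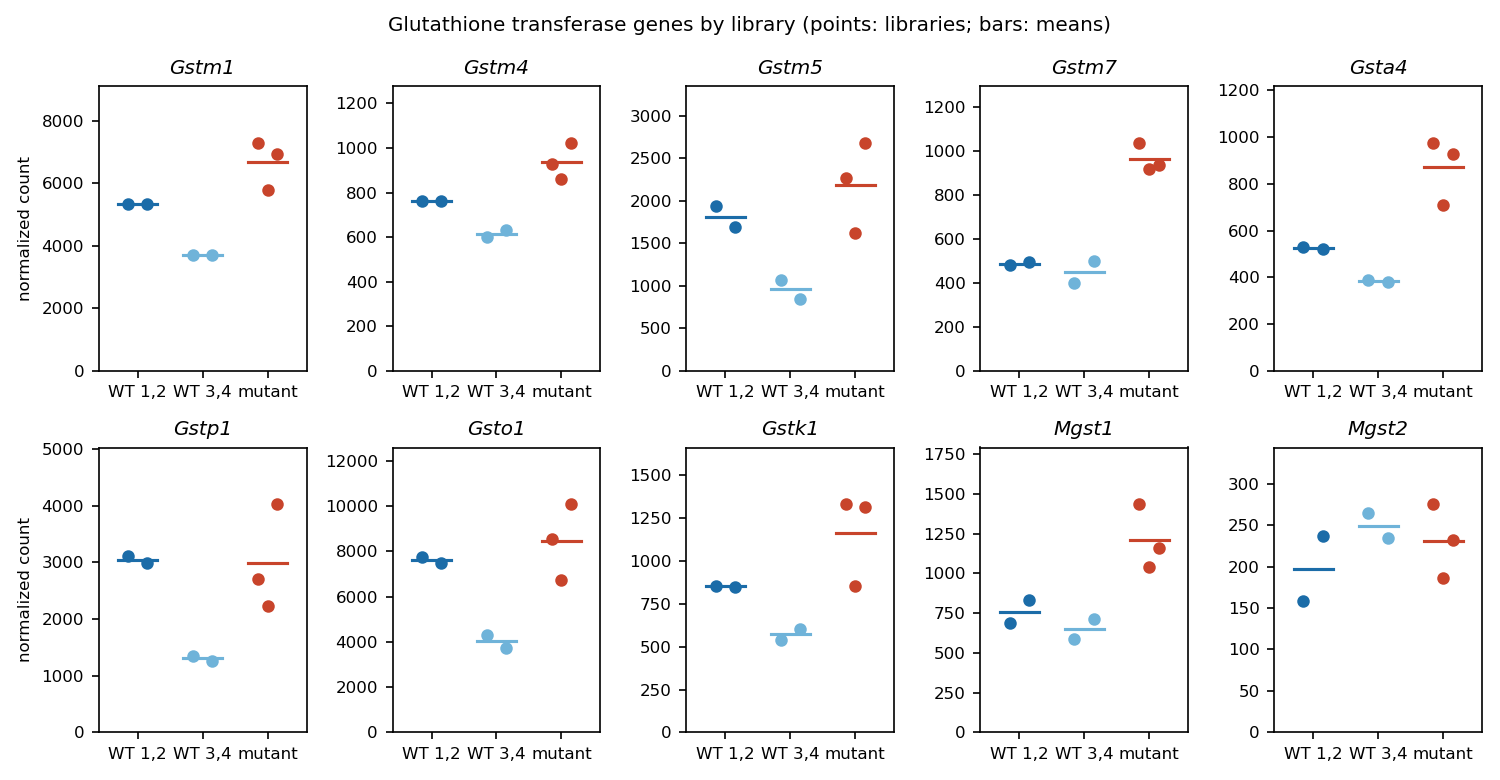
Normalized counts (vertical axis, from 0) of the 10 genes, 1 panel each, in wild-type 1 and 2 (dark blue), wild-type 3 and 4 (light blue) and mutant 1 to 3 (red, left to right); points are libraries and bars are means. In Gstm1, Gstm4, Gstm7, Gsta4 and Mgst1 all 3 red points are above all 4 blue points, and in Gstp1 the light blue points, 1346 and 1266, are below both dark blue and red ones.

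Gsta4 encodes an alpha class enzyme specialised for 4-hydroxynonenal and related aldehydes that form when lipids are oxidised. Gsta4 (ENSMUSG00000032348.6, chromosome 9, 78182774 to 78209349) had 529.9, 520.5, 389 and 378 normalized counts across wild-type 1 to 4, against 975, 709 and 927 across mutant 1 to 3. The groups did not overlap, the lowest mutant library being 1.34 times the highest wild-type library. Mean values were 454 ± 82.0 (SD, n = 4) and 870.2 ± 142 (SD, n = 3), a log2 difference of 0.94 (limma SE 0.22). It was 0.71 against wild-type 1 and 2 and 1.17 against wild-type 3 and 4.

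The pi, omega and kappa genes depended on the wild-type pair. Gstp1, the pi class enzyme that also binds the stress kinase JNK, had 3107, 2988, 1346 and 1266 normalized counts across wild-type 1 to 4, against 2706, 2223 and 4020 across mutant 1 to 3 (ENSMUSG00000060803.6, chromosome 19, 4035407 to 4037985). Mutant 1 and 2 were between the wild-type pairs, and the log2 difference of 0.54 (limma SE 0.39) was -0.08 against wild-type 1 and 2 and 1.15 against wild-type 3 and 4. Gsto1, the omega class enzyme with thiol transferase activity, had 7767, 7496, 4326 and 3728 across the wild-type group, against 8561, 6752 and 10073 across the mutant group (ENSMUSG00000025068.8, chromosome 19, 47854970 to 47864790). Mutant 2 was below wild-type 1 and 2, and the log2 difference of 0.59 (limma SE 0.30) was 0.13 and 1.06 against the respective pairs. Gstk1, the kappa enzyme, had 857, 851, 538 and 605 across the wild-type group, against 1329, 854 and 1315 across the mutant group (ENSMUSG00000029864.7, chromosome 6, 42245935 to 42250447). Mutant 1 and 3 were above all wild-type libraries and mutant 2 was between wild-type 1 and 2, so the groups just overlapped. Its log2 difference was 0.71 (limma SE 0.26), 0.42 against the first pair and 1.001 against the second.

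The membrane genes behaved unlike each other. Mgst1, the microsomal enzyme that combines transferase and peroxidase activity, had 688, 832, 586 and 711 normalized counts across wild-type 1 to 4, against 1434, 1040 and 1160 across mutant 1 to 3 (ENSMUSG00000008540.11, chromosome 6, 138140316 to 138156755). Its groups did not overlap, with means of 704 ± 101 (SD, n = 4) and 1211 ± 202 (SD, n = 3) and a log2 difference of 0.78 (limma SE 0.20), 0.66 against wild-type 1 and 2 and 0.89 against wild-type 3 and 4. Mgst2, which can also make leukotriene C4, had 158, 237, 264 and 234 across the wild-type group, against 275, 186 and 232 across the mutant group (ENSMUSG00000074604.9, chromosome 3, 51660360 to 51682677). These values overlapped throughout, and the log2 difference of 0.05 (limma SE 0.26) changed sign between the pairs (0.23 and -0.13).

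In all, 5 of the 10 genes (Gstm1, Gstm4, Gstm7, Gsta4 and Mgst1) had their 3 mutant values above their 4 wild-type values, a pattern seen in 5.23% of all 16047 tested genes, and 0 had every mutant library below, against 4.34% of all tested genes. The same 5 had every mutant library above both wild-type 1 and 2 (13.9% of tested genes), and 9 had every mutant library above both wild-type 3 and 4 (33.8% of tested genes), Mgst2 being the exception. Since the genes were chosen with this contrast known, nothing is read from these shares. The median log2 difference of the 10 was 0.65 over all libraries, 0.30 against wild-type 1 and 2 and 1.03 against wild-type 3 and 4, and the medians over all tested genes were 0.00 in each case. Between libraries of that title series (mutant 1 and 2 against wild-type 3 and 4) the difference was 0.54 to 1.13 in 9 genes and -0.14 in Mgst2. Outside that series, where mutant 3 alone stood against wild-type 1 and 2 with no replicate, it was 0.26 to 0.94 in all 10.

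Over all genes, limma on log2(normalized count + 1) called 0 of 16047 genes at an adjusted p of 0.05 (0%; 1365 at an unadjusted p under 0.05), edgeR on the recovered reads called 0 (1639 unadjusted) and DESeq2 called 107 (0.667%).

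**Figure D2:**
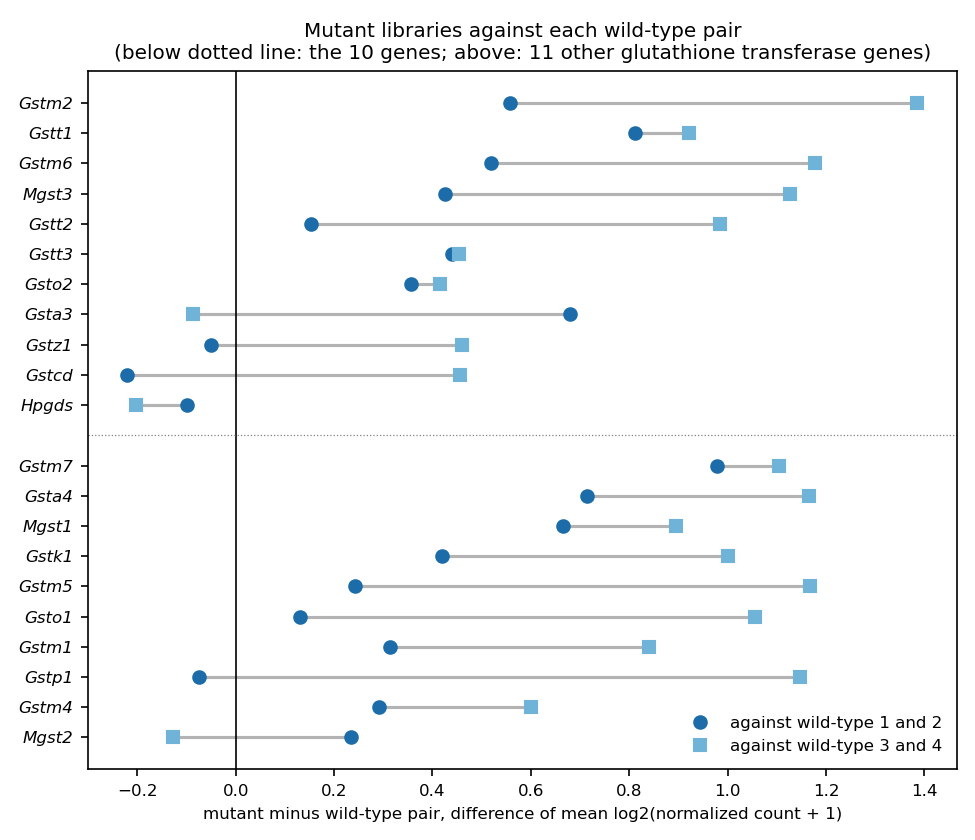
Mutant minus wild-type difference in mean log2(normalized count + 1) (horizontal axis) for each gene, against wild-type 1 and 2 (circles) and against wild-type 3 and 4 (squares); the 10 genes are below the dotted line and 11 other glutathione transferase genes above it. Gstm7 has 0.98 and 1.11, close together, while Gstp1 has -0.08 and 1.15.

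By library, the mean log2 deviation of the 10 genes from their own means was -0.05, 0.00, -0.52 and -0.52 across wild-type 1 to 4, against 0.48, 0.10 and 0.52 across mutant 1 to 3. Mutant 2 was thus the lowest mutant library, and it also had the highest length slope of the 3 (0.01, against -0.12 in mutant 1 and -0.17 in mutant 3). With this slope as a covariate the median log2 difference of the 10 genes was 0.31. Gstm7 then had 0.98, Gsta4 0.70 and Mgst1 0.66, whereas Gsto1 had 0.15 and Gstp1 -0.06. The highest slopes were those of wild-type 3 and 4, so this fit cannot tell length apart from other features of that pair. Leaving that pair out gave a median of 0.30. Fewer cells of a type and less RNA per cell cannot be told apart in bulk libraries of this kind.

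**Figure D3:**
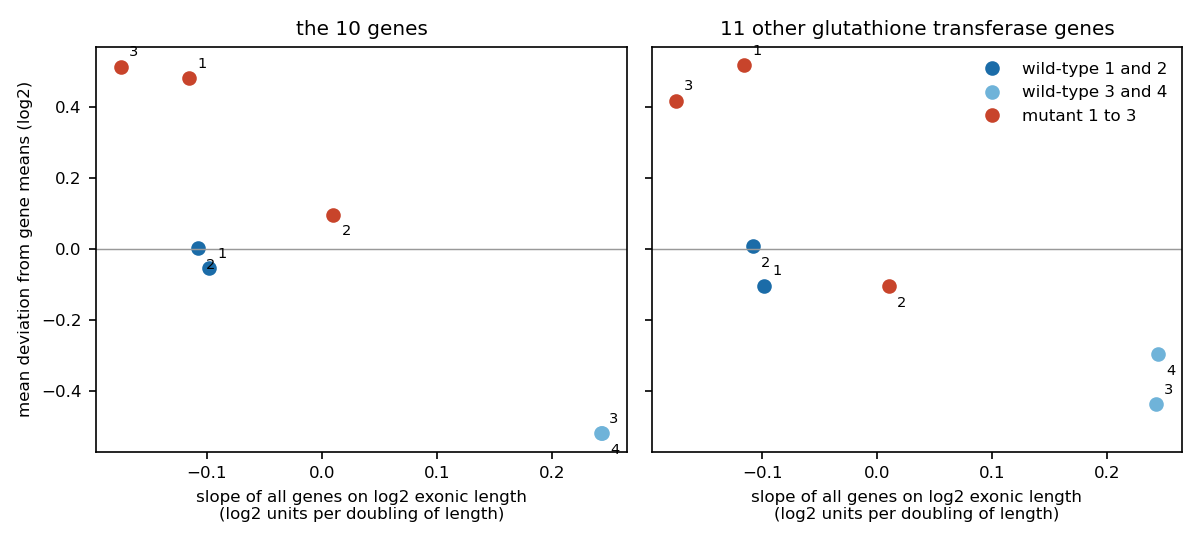
Mean log2 deviation from the gene means (vertical axis) of the 10 genes (left) and of 11 other glutathione transferase genes (right) against each library's slope of all tested genes on log2 exonic length (horizontal axis); points are libraries, numbered within their group. On the left, mutant 1 to 3 are at 0.48, 0.10 and 0.52, with slopes of -0.12, 0.01 and -0.17. Wild-type 1 and 2 are at -0.05 and 0.00, with slopes of -0.10 and -0.11. Wild-type 3 and 4, both at -0.52, have the highest slopes.

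Levels can be compared between genes only per length, which the deposited FPKM (fragments scaled to transcript length and library size) allow when summed over the transcripts of a gene. In wild-type libraries Gsto1 was highest at 198 ± 69.1 FPKM (SD, n = 4), followed by Gstm1 (162 ± 38.4), Gstp1 (101 ± 46.5), Gstm5 (58.4 ± 22.1), Mgst1 (36.1 ± 5.37), Gstk1 (28.2 ± 6.73), Gsta4 (17.6 ± 2.97), Gstm4 (16.4 ± 1.68), Gstm7 (13.05 ± 1.30) and Mgst2 (8.003 ± 1.41). Neighbours in this order had overlapping wild-type libraries, except that Gsta4 was below Gstk1, Gstm7 below Gstm4, and Mgst2 below Gstm7 in every library of the group. In mutant libraries the order was the same but for one exchange: Gstm7, at 27.9, 25.0 and 26.6 FPKM in mutant 1 to 3, was above Gstm4, at 22.7, 19.9 and 24.9. In wild-type 1 to 4 Gstm7 had 13.2, 13.9, 11.2 and 14.0 and Gstm4 17.6, 18.1, 14.6 and 15.3, so the order of this pair differed between the groups without overlap in either. In the mutant group Gstp1 was below Gstm1, Gstm4 below Gstm7, and Mgst2 below Gstm4 in every library, and other neighbours overlapped.

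**Figure D4:**
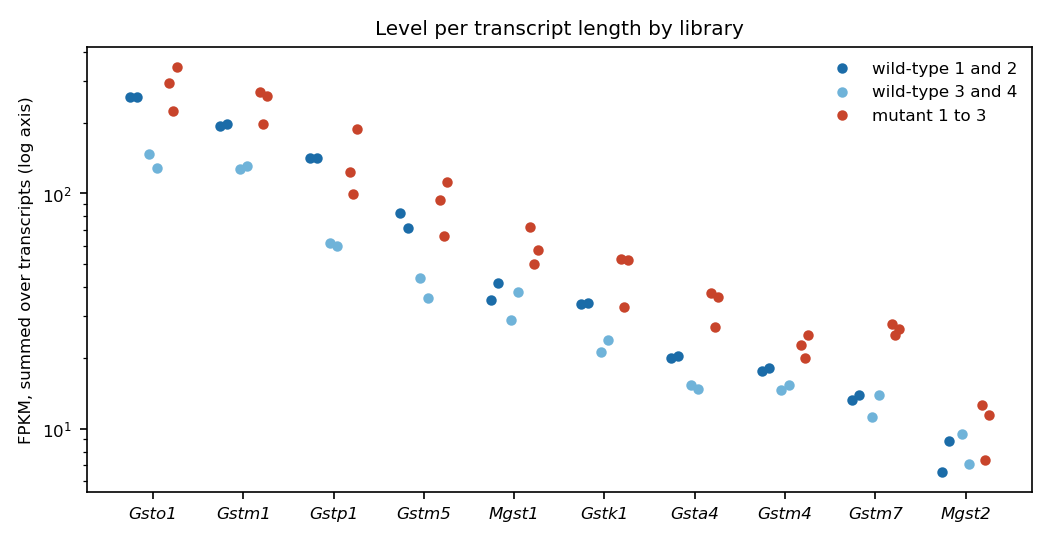
FPKM summed over transcripts (vertical log axis) for the 10 genes, ordered by their wild-type mean, in wild-type 1 and 2 (dark blue), wild-type 3 and 4 (light blue) and mutant 1 to 3 (red); points are libraries. Gsto1, Gstm1 and Gstp1 lead in both groups, and Gstm7 is the gene whose red points, 25.0 to 27.9, lie farthest above its blue ones.

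By group mean, all 10 genes had the same leading transcript in both groups. Gstm7-201 (ENSMUST00000004137.10) held 97.1% of the wild-type and 97.9% of the mutant FPKM of Gstm7, Gstk1-201 held 98.2% and 98.7%, and Gsta4-201 held practically the whole of Gsta4. Gstm1-201 held 66.9% and 64.7% of Gstm1, with most of the rest in Gstm1-204, a transcript annotated without a coding sequence. Gstp1-201 held 92.7% of Gstp1 in wild-type and 95.9% in mutant libraries (87.4% to 94.3% against 94.8% to 96.7% by library). The minor coding transcript Gstp1-209 held 1.15% to 6.88% in wild-type and 0.133% to 1.03% in mutant libraries. Its level was low, at 0.713 to 4.13 FPKM in wild-type and 0.165 to 1.02 FPKM in mutant libraries. How often shares separate in this way over all transcripts was not examined, so nothing is read from it. Gstm5-201 held 74.5% and 84.6% of Gstm5, with overlapping libraries (64.1% to 86.4% against 79.3% to 88.0%). Gstm4 was divided between Gstm4-201 (54.1% and 50.5%) and Gstm4-203. Mgst1 was led by Mgst1-207 (55.5% and 53.6%), and Mgst1-201 held 14.0% and 18.4%. In Mgst2 the coding transcript Mgst2-201 held 69.6% in wild-type and 83.5% in mutant libraries, and the retained-intron transcript Mgst2-205 held 19.0% and 9.68%; both shares overlapped between groups by library (61.2% to 82.8% against 78.4% to 90.3% for Mgst2-201). Summed FPKM gave Mgst2 a log2 difference of 0.33, against 0.05 in the gene counts.

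Promoters were examined because NRF2 binds the antioxidant response element. RefSeq promoter windows (GRCm38.p6, 250 bases before to 50 after each start) were at hand for 9 of the 10 genes, Gsta4 being the one without, in 13 windows. The motif searched was TGACNNNGC on both strands, which occurred in 12.4% of 32851 windows of this length. It occurred in 3 of the 13 windows, once each at Gstm5, Gstm7 and Mgst1, printed here in capitals with 10 bases to either side.
Gstm5 (chr3:107895802-107895830, plus strand, motif 34 bases before the start): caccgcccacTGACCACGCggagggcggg
Gstm7 (chr3:107931725-107931753, minus strand, motif 121 bases before the downstream of its RefSeq starts): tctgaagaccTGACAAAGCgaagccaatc
Mgst1 (chr6:138140461-138140489, plus strand, motif in reverse orientation, 48 bases before the upstream of its RefSeq starts): gcggggcttgGCACGGTCAggaggcgggg

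These matches are letters in a window and say nothing of binding. The Gstm7 and Mgst1 matches lie inside the GENCODE spans of their genes (107926334 to 107931817 and 138140316 to 138156755). They are thus downstream of the gene starts annotated there, though before a RefSeq start. The window at the upstream RefSeq start of Gstm7 held no match.

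Genes with the most similar pattern over the 7 libraries were sought for Gstm7, Gsta4, Mgst1 and Gstk1, by the root mean square deviation of centred log2 values. For Gstm7 they were Snrpn, which encodes a splicing protein (0.10 log2 units), and 6430571L13Rik (0.13), against a spread of Gstm7 about its own mean of 0.53. Snrpn had 139, 121, 107 and 131 normalized counts across the wild-type group, against 242, 222 and 246 across the mutant group. For Gsta4 they were Pir (0.10), which encodes the iron-binding protein pirin, and the mitochondrial mt-Co1 (0.11). For Mgst1 they were Gm6055 (0.08) and Tmem147os (0.10), and for Gstk1 Ropn1l and Tmem218 (0.07 each). Among the 10 genes, Gstm7 was nearest to Mgst1 (0.17), and Gsta4 was nearest to Gstk1 (0.15).

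The rest of the family was taken from a list of 18 other glutathione transferase genes; the table held 13 of these and the filter left 11. None passed limma's test over all genes (0 of 11; 4 at an unadjusted p under 0.05, which 8.51% of all tested genes reached). Of the 11 differences 10 were positive, against 50.1% of all tested genes, and their median log2 difference was 0.45 (0.43 against wild-type 1 and 2, 0.46 against wild-type 3 and 4). These medians are close, but single genes varied with the pair. Gstt2 had 0.15 and 0.98, Gstz1 -0.05 and 0.46, and Gstcd -0.22 and 0.46 against the respective pairs. Gsta3 went the other way (0.68 and -0.09), and Gstt3 hardly changed (0.44 and 0.45). Gsta3 was low, with 4.16 to 28.0 normalized counts. All mutant values were above all wild-type values in 4 of them, Gstm2, Gstt1, Gstt3 and Mgst3, against 5.23% of all tested genes. The theta class gene Gstt1 (ENSMUSG00000001663.10, chromosome 10, 75783813 to 75798584) had 438, 575, 456 and 473 normalized counts across wild-type 1 to 4, against 963, 674 and 1055 across mutant 1 to 3. Its log2 difference was 0.87 (SE 0.22; limma adjusted p = 0.538), 0.81 against the first pair and 0.92 against the second. DESeq2 on the recovered reads called it higher (adjusted p = 0.0414). The adjusted p ranged from 0.0114 to 0.918 over the alternatives, below 0.05 also without wild-type 1 and 2 (0.0114) and with the title series as a covariate (0.0258). Mgst3, a membrane relative of Mgst1, had 472, 505, 289 and 311 across the wild-type group, against 699, 526 and 768 across the mutant group (log2 0.78, SE 0.27; limma adjusted p = 0.538, 0.00561 to 0.918 over the alternatives). Its difference was 0.43 against wild-type 1 and 2 and 1.13 against wild-type 3 and 4. Gstm2, next to the other mu class genes, had 388, 457, 250.3 and 224 across the wild-type group, against 509, 503 and 930.4 across the mutant group. The 11 genes averaged -0.10, 0.01, -0.44 and -0.30 across wild-type 1 to 4, against 0.52, -0.11 and 0.42 across mutant 1 to 3, so mutant 2 was at the level of wild-type 1.

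Genes that supply, use or clear glutathione had no call in limma's test over all libraries in any list, against 0% of all genes. The title series as a covariate changed this: limma then called 25 of the 69 tested genes of all 6 lists, against 22.4% of all tested genes. Of the genes named here, Gstt1, Mgst3, Alox5ap, Glrx, Gpx1, Abcc1, Abcc4, Nfe2l2, Mafg and Slc1a5 were then called, with limma adjusted p of 0.0258 to 0.0478. Slc7a11 and Ptges had 0.106 and 0.105. Gstm2 was called as well. Inside the title series this fit compares with wild-type 3 and 4, the pair that stood apart. Outside the series mutant 3 is the only mutant library. The same 10 and Gstm2 were called without wild-type 1 and 2, as was Gstt3. In that fit 43 of 68 listed genes and 44% of all tested genes were called. Of the 18 tested genes that make, recycle or break down glutathione, 9 were positive and 9 negative (median 0.04; -0.08 against wild-type 1 and 2 and 0.06 against wild-type 3 and 4). The rate-limiting pair Gclc and Gclm had log2 differences of -0.25 and 0.24 (Gclc 0.01 and -0.51, Gclm 0.33 and 0.16 against the pairs). Slc7a11, the cystine importer, had 10.9, 30.1, 26.7 and 27.4 normalized counts across the wild-type group, against 57.2, 34.8 and 54.4 across the mutant group (log2 1.07, SE 0.43; limma adjusted p = 0.538), without overlap, and 1.34 and 0.80 against the respective pairs. Slc1a5, a glutamine transporter, had every mutant library below every wild-type library (log2 -0.47, SE 0.17; limma adjusted p = 0.538), with -0.41 and -0.53 against the pairs. These were the only such genes in this list. Of its 18 tested genes 1 had every mutant library above and 1 every mutant library below. The shares over all tested genes were 5.23% and 4.34%.

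All 13 glutathione peroxidase, glutaredoxin, glyoxalase and related genes had positive differences, against 50.1% of all tested genes, but their median was 0.50 over all libraries, 0.12 against wild-type 1 and 2 and 0.90 against wild-type 3 and 4. None of the 13 had groups without overlap, against 5.23% of all tested genes with the mutant libraries above and 4.34% with them below. Gpx1, the main cytosolic peroxidase, had 52353, 51913, 34760 and 29265 normalized counts across the wild-type group, against 71459, 46173 and 85633 across the mutant group (log2 0.69, SE 0.30; limma adjusted p = 0.538), and 0.33 and 1.04 against the respective pairs. Glrx, a glutaredoxin, had a log2 difference of 0.51 (SE 0.25), which was 0.17 against wild-type 1 and 2 and 0.86 against wild-type 3 and 4. The 11 tested relatives in the GST fold and MAPEG families had a median of 0.38, but -0.04 against wild-type 1 and 2 and 0.29 against wild-type 3 and 4. Alox5ap, which presents arachidonic acid to 5-lipoxygenase, had a log2 difference of 0.64, made up of 0.24 against the first pair and 1.04 against the second. Ptges, a prostaglandin E synthase, went the other way, with 0.69 in all, 1.20 against the first pair and 0.19 against the second. Ptges was called once the length slope was a covariate (limma adjusted p = 0.0442; 0.791% of all tested genes were called), where its log2 difference was 1.09, and its adjusted p was up to 0.918 in other alternatives.

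Of the 7 tested exporters of glutathione conjugates, 5 were negative (median -0.62), with 0.06 against wild-type 1 and 2 and -1.70 against wild-type 3 and 4. Abcc1, the exporter MRP1, had 1420, 1441, 4512 and 3783 normalized counts across the wild-type group, against 1278, 1418 and 1135 across the mutant group (log2 -0.93, SE 0.44; limma adjusted p = 0.538), so most of that difference came from wild-type 3 and 4. Abcc4 was at 458 and 427 for wild-type 1 and 2, at 1812 and 1607 for wild-type 3 and 4, and at 371, 567 and 376 in mutant libraries (log2 -1.02, SE 0.55). Of 9 regulators 2 were positive and 7 negative, with a median of -0.32, 0.04 against wild-type 1 and 2 and -0.56 against wild-type 3 and 4. Nfe2l2, which encodes NRF2, had 3491, 3299, 3182 and 2826 across the wild-type group, against 4188, 3766 and 4305 across the mutant group (log2 0.35, SE 0.15; limma adjusted p = 0.538), with 0.27 and 0.44 against the pairs. Mafg, a small MAF partner of NRF2, had every mutant library below every wild-type library (log2 -0.52, SE 0.19; limma adjusted p = 0.538), with -0.32 and -0.71 against the pairs. Of the 9 regulators 1 had every mutant library above and 1 every mutant library below, against 5.23% and 4.34% of all tested genes. Keap1, the NRF2 inhibitor, had -0.16 in all, -0.06 against the first pair and -0.26 against the second.

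Summed markers of some other blood cells differed between the groups beside these values, with no single marker called by limma over all genes. Neutrophil and monocyte markers summed to 46811 to 91271 normalized counts in wild-type libraries and to 51379, 11343 and 13786 in mutant 1 to 3, with 14 of 16 lower and none at 0 in any library. In 7 of the 16 every mutant library, mutant 1 included, was below every wild-type library, against 4.34% of all tested genes. The sum of these markers was within the wild-type range in mutant 1 and below it in mutant 2 and 3. Mast cell, basophil and eosinophil markers summed to 289 to 480.0 in wild-type and 98.2 to 251 in mutant libraries (4 of 4 tested lower; Mcpt8, Ms4a2, Fcer1a and Ear2 were at 0 in at least 1 library). Erythroid markers summed to 34791 to 55679 in wild-type and 55893 to 69903 in mutant libraries; Car2 made up 95.0% of that sum, and 9 of the 12 markers were lower. Summed B cell markers overlapped between the groups (1082 to 1813 against 1389 to 1955), but Cd79b made up 87.1% of that sum. Of the 6 tested B cell markers 4 were lower and 2 higher, with a median log2 difference of -1.28 over the 6. All mutant values lay under all wild-type values in 2 of the 6 and over them in 1. The shares over all tested genes were 4.34% and 5.23%. Summed markers of megakaryocytes, T and NK cells, macrophages and stroma overlapped between the groups. The part of these cells in the glutathione transferase values was not tested.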

How the data were processed

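The authors deposited a table of normalized counts, a gene signal with 1 column per library, for 19649 genes, and a table of FPKM for 66660 transcripts. The tools, per the submitters' processing notes, include STAR 2.7.3a for GRCm38, with Cufflinks 2.2.1, HTSeq 0.6.1, DESeq2 1.12.4 and FastQC 0.11.7; roles and options are not stated there. Per the labels' protocols, cDNA was made with SMART-Seq v4, a kit that does not mark strand. In each library 100% of normalized counts were whole multiples of 1 step within 0.01 reads, so whole reads were recovered. Near-identical family members could be affected by how multiply mapped reads were treated, which is not stated.

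The filter kept 16047 genes, those reaching a normalized count of 10 in 3 or more libraries. All were fitted together on log2(normalized count + 1) by limma 3.58.1 (trended variance; R 4.3.3); tests were two-sided with Benjamini-Hochberg adjustment over all genes. Fold differences on this scale understate changes of low genes. Alternatives were other pseudocounts, filters and scalings, edgeR 4.0.16 and DESeq2 1.42.0 on recovered reads, summed FPKM, left-out libraries, and covariates. Fits were tested on simulated reads, with an equal noise setting for all genes and no difference between the wild-type pairs. That test therefore does not cover the split seen between the pairs here. Positions and lengths came from GENCODE vM21. Named beyond the 10 genes were the 2 of smallest p in each of 6 pathway lists where none passed. The 2 nearest patterns of 4 genes and genes that share sequence or exons with a member were named too. Gclc, Gclm, Keap1, Gstm2, Gstt2, Gstt3, Gstz1, Gstcd, Gsta3, Car2, Cd79b and the marker genes at 0 were added after their values were seen. Members, lists and alternatives were chosen with earlier results of these data known.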

Additional observations from a re-analysis of the deposited data

How the results depend on the processing

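The median log2 difference of the 10 genes ranged from 0.30 to 1.03 over the 20 alternatives, and Gstm1, Gstm4, Gstm5, Gstm7, Gsta4, Gsto1, Gstk1 and Mgst1 stayed positive in each. Gstm7 ranged from 0.97 to 1.15. Gstp1 was negative without wild-type 3 and 4 (-0.08) and with the length slope (-0.06), and Mgst2 was negative on leaving out wild-type 1 and 2 (-0.13), wild-type 1 alone (-0.10) or mutant 1 (-0.08). Over all genes, calls numbered 107 with DESeq2 (the limma fit called 0), 51 on leaving out wild-type 3 and 4, 6815 on leaving out the other pair, 127 with the length slope and 3597 with the title series as a covariate. Without any 1 library limma called 0, with 592 to 2385 genes at an unadjusted p under 0.05. In the pathway lists, calls numbered 1 with DESeq2 (Gstt1), 1 with the length slope (Ptges), 43 without wild-type 1 and 2 and 25 with the title series, and 0 without wild-type 3 and 4 or any 1 library. Fits without wild-type 1 and 2 rest on a wild-type pair that stood apart from the other libraries. The fit with the title series as a covariate rests on that pair in part. Why the pair stood apart was not tested. No paired analysis was possible because no title number is shared between the groups.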
